A study of Homo sapiens with 4 samples.

Results

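The Krüppel-like factor (KLF) genes KLF2, KLF3, KLF5, KLF6, KLF7, KLF9, KLF10, KLF12, KLF13 and KLF17, with KLF4 left out, were examined for binding of the transcription factor GATA3 in BMP4-treated hESCs. These 10 genes were taken from 20033 protein-coding genes by name. They are a part of the family, since 8 other KLF genes, KLF4 among them, were not in the set. A GATA3 position was assigned to a gene when it lay within 100 kb of the 5′ end of the gene in hg38, lay in the gene body, or carried the symbol of the gene in the deposited list. The cells were H1, an established human embryonic stem cell line grown in mTeSR1, and all samples had received BMP4 at 50 ng/ml for 6 h. Of the 4 samples, 2 were replicates of chromatin immunoprecipitated with a GATA3 antibody and 2 were their input chromatin. A list of peak positions was analysed for each ChIP replicate, with 18456 positions on chromosomes in replicate 1 and 12782 in replicate 2. Input chromatin entered through the peak calling only, and no list from untreated cells was analysed here, so no position could be compared with its state before BMP4. Peak positions carry no expression values, so neither the cell type nor the activity of the KLF genes could be checked against markers.

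KLF proteins are zinc finger transcription factors that bind GC-rich and CACCC sequences. Several of them hold stem cells in the pluripotent state, while others act in differentiation, in hormone responses or as repressors that recruit corepressor proteins. GATA3 is a zinc finger protein that recognises the letters GATA flanked by particular bases, and it is induced early in hESCs by BMP4 signaling.

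GATA3 positions at the KLF genes lay, with 1 exception, more than 10 kb from the 5′ ends. No share over all genes was taken for single positions this near. Measured to any annotated transcript start of the same gene, replicate 1 positions at KLF5 (0.711 kb) and KLF7 (6.53 kb) were also within 10 kb. Replicate 1 had 14 positions in the windows of the 10 genes and replicate 2 had 8. A position was counted as shared when the other replicate had one at most 100 bp away, which gave 6 shared regions. These belonged to 5 of the 10 genes, namely KLF2, KLF5, KLF7, KLF10 and KLF12. Under the same rule 47.7% of all protein-coding genes had at least 1 shared region. KLF3 and KLF6 had 1 position each, found in a single replicate, and KLF9, KLF13 and KLF17 had 0 positions in either. Having no position in either list was the case for 27.4% of protein-coding genes.

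The windows of the shared regions are shown because they hold the sequence under the replicated positions. Each is 200 bp of hg38 centred on the mean of the replicate positions. Capitals mark a GATA word, that is GATA with A or T before it and A or G after it. AGATAA is one of the 4 such words, and on the minus strand it reads TTATCT. The region at KLF10 is described by its position and values only.
KLF2 shared region, chr19:16289682-16289881, plus strand: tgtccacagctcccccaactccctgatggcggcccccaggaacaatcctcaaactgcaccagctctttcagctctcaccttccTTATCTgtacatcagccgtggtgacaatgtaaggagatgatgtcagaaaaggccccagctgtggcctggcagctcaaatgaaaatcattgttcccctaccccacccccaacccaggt
KLF12 shared region in intron 5, chr13:73765606-73765805, plus strand: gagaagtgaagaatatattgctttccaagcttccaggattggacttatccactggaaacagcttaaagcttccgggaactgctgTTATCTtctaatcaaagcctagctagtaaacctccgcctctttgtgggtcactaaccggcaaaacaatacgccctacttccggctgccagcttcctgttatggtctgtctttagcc
KLF12 shared region in intron 6, chr13:73731747-73731946, plus strand: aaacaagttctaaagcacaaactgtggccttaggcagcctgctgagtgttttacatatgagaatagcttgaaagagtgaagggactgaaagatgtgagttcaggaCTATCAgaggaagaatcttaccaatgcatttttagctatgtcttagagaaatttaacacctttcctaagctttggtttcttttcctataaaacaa
KLF5 shared region, chr13:73090605-73090804, plus strand: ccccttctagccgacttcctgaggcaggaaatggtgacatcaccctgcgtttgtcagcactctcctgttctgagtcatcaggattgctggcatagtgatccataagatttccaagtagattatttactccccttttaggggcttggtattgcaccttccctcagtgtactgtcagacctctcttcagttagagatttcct
KLF7 shared region, chr2:207245718-207245917, plus strand: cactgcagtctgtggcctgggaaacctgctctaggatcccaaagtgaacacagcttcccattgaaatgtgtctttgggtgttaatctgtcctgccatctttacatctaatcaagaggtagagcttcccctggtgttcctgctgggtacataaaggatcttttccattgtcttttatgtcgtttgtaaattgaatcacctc
The first 3 windows have 1 GATA word each, within 13.5 bp of the centre. The windows at KLF5 and KLF7 have 0.

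**Figure D1:**
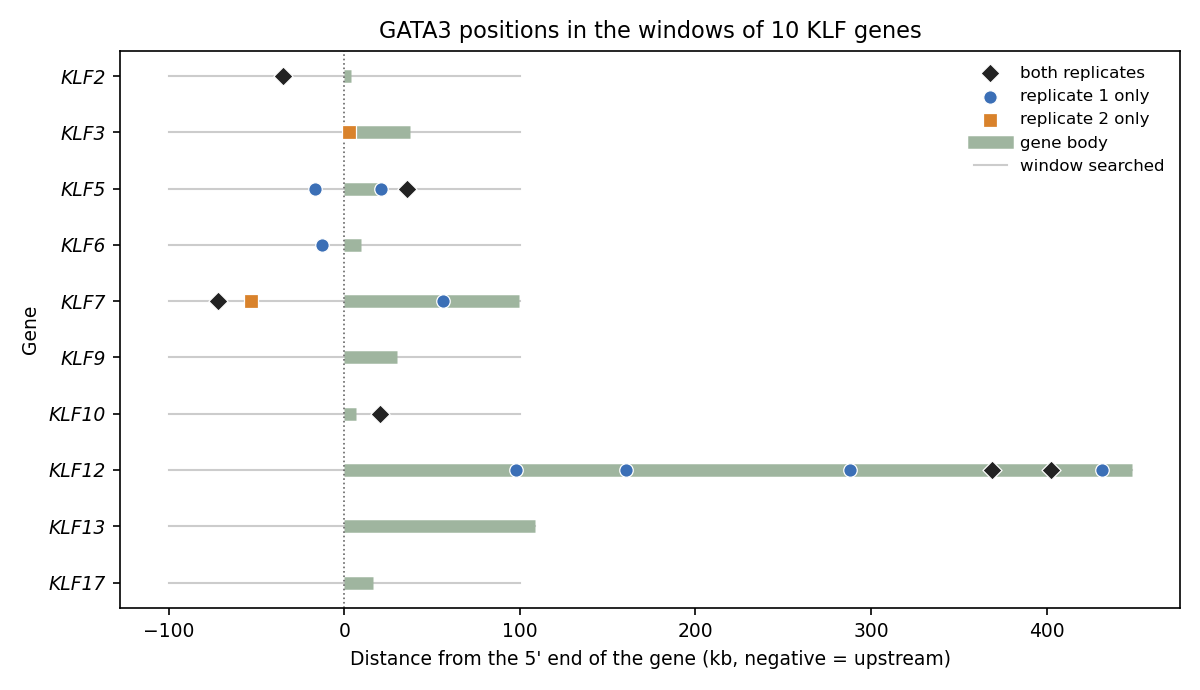
Distance in kb of each GATA3 position (x axis) from the 5′ end of the 10 KLF genes (y axis), with the gene body as a thick bar and the searched window as a thin line. Black diamonds are shared regions and coloured points are positions of 1 replicate. The shared regions lie from 20.2 kb to 403 kb from the 5′ ends, and a single point, at KLF3, lies within 10 kb.

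Among the genes known for pluripotency, KLF2 and KLF5 had a shared region and KLF17 did not. KLF2, which helps to maintain naive pluripotency and also acts in the endothelium, lies on the plus strand of chromosome 19, between 16324826 and 16328685. Its only region was at 16289754 in replicate 1 and 16289808 in replicate 2, 35.0 kb upstream, in intron 1 of the divergent noncoding transcript KLF2-DT. Its replicate positions were 54 bp apart, the widest gap of the 6 regions, and at a limit of 50 bp KLF2 had 0 shared regions. The word AGATAA lay on the minus strand at 16289765 to 16289770, 13.5 bp from the centre.

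KLF5, a factor of epithelia and of the early embryo that sustains self-renewal, lies on the plus strand of chromosome 13, between 73054976 and 73077541. The shared region was at 73090704 in replicate 1 and 73090705 in replicate 2, 35.7 kb downstream of the 5′ end and 13.2 kb beyond the 3′ end. Its replicate positions differed by 1 bp, the smallest gap of the 6. Replicate 1 had a further position 16.8 kb upstream, at 73038194, and another at 73075726 in coding exon 4 of KLF5. The latter was 20.8 kb downstream of the 5′ end of the gene and 0.711 kb from the start of another annotated KLF5 transcript. The nearest replicate 2 position was 52511 bp from the first and 14979 bp from the second. KLF17, a marker of the naive human epiblast, had its nearest position of any kind 136 kb downstream, at chromosome 1 position 44254707 in replicate 2, and its nearest shared region 348 kb upstream.

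KLF3 and KLF12 encode repressors that recruit the corepressor CtBP. KLF12 is the longest of the 10 genes at 448 kb, between 73686089 and 74134404 on the minus strand of chromosome 13, and it had the most positions, 6 in replicate 1 and 2 in replicate 2. All of them lay in its gene body. The pair in both replicates was at 73765711 and 73765700 in intron 5, and at 73731866 and 73731826 in intron 6, which is 369 kb and 403 kb downstream of the 5′ end. KLF12 was the only one of the 10 genes with at least 2 shared regions, against 17.3% of protein-coding genes. Its window was 0.548 Mb long, and 2 regions in that length is 3.65 per Mb (95% exact Poisson interval 0.442 to 13.2), against 3.11 per Mb over the chromosomes. Both regions were outside 100 kb of the 5′ end, so without the gene body KLF12 had 0. The 4 positions of replicate 1 alone were in introns 1, 2 and 7 and, at 73846270, in coding exon 4.

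KLF3, which restrains adipocyte and erythroid genes, had the position nearest to a 5′ end of all. It was at chromosome 4 position 38667094 in replicate 2, in intron 1 and 2.90 kb downstream of the 5′ end. The nearest replicate 1 position was 209986 bp away from it, so this location rests on replicate 2 alone. The nearest shared region was 213 kb from the 5′ end of KLF3.

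KLF9, KLF10 and KLF13 share a repressor domain that binds the corepressor SIN3. KLF10, also known as a TGF-β inducible early gene, lies on the minus strand of chromosome 8, between 102648784 and 102655725. Its shared region, at 102635564 in replicate 1 and 102635574 in replicate 2, was 20.2 kb downstream of the 5′ end and 13.2 kb beyond the 3′ end. That was the shortest distance from a 5′ end among the 6 regions. KLF9, a gene induced by glucocorticoids, had a position of replicate 1 at 119 kb upstream and a shared region at 694 kb upstream, both outside the window. KLF13, first known as an activator of a chemokine gene in T cells, had a position of replicate 2 at 247 kb upstream and a shared region at 302 kb upstream.

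KLF6 and KLF7 are related activators, KLF6 in injury responses and KLF7 in neurons. KLF6, between 3775996 and 3785281 on the minus strand of chromosome 10, had a position of replicate 1 at 3797911, 12.6 kb upstream of its 5′ end. The nearest position of replicate 2 was 138220 bp from it, and the nearest shared region was 126 kb downstream of the 5′ end. KLF7, between 207074137 and 207173856 on the minus strand of chromosome 2, had 2 positions in each replicate, of which 1 pair was shared. That region, at 207245825 and 207245810, was 72.0 kb upstream. It lay in intron 2 of the canonical transcript of the noncoding gene MYOSLID, and in an exon of another annotated MYOSLID transcript. The unshared positions were at 207226665 in replicate 2, 52.8 kb upstream, and at 207117877 in replicate 1, in intron 2 of KLF7. The latter was 56.0 kb downstream of the 5′ end and 6.53 kb from the start of another annotated KLF7 transcript.

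Positions found in a single replicate are shown for KLF3 and KLF6, whose windows lie nearest to a 5′ end, and for the KLF12 window with the most GATA words. The first pair was chosen after their values were seen. Capitals mark GATA words as before.
KLF3 position of replicate 2, chr4:38666995-38667194, plus strand: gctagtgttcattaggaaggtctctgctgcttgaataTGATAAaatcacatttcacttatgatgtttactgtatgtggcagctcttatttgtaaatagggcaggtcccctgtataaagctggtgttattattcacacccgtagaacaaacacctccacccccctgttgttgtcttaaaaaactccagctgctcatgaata
KLF6 position of replicate 1, chr10:3797812-3798011, plus strand: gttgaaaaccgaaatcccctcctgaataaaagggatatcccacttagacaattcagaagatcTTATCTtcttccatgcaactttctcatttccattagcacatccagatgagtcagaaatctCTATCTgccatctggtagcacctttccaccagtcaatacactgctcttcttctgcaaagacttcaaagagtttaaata
KLF12 position of replicate 1 in intron 2, chr13:73973775-73973974, plus strand: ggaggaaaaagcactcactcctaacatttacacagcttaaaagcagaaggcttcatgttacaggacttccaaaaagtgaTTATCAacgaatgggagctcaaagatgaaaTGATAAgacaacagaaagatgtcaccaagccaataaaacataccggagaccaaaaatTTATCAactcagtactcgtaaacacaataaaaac
KLF3 has 1 word, 59.5 bp from the position. KLF6 has 2, the nearer at 25.5 bp, and KLF12 has 3, the nearest at 12.5 bp.

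Agreement between the replicates at the KLF genes was within the counting error of that over all positions. Of the 14 positions of replicate 1, 42.9% were shared (95% Wilson interval 21.4 to 67.4), against 49.6% of all positions. Of the 8 positions of replicate 2 the share was 75% (40.9 to 92.9), against 71.5% of all. The gap between the replicates in the 6 regions ran from 1 to 54 bp, and the median over all shared regions was 23 bp. The 10 unshared positions were 14979 bp or more from the other list, so a wider limit of 250 or 500 bp added no region. In both lists 6 of the 10 genes had a position, but KLF6 was in replicate 1 only and KLF3 in replicate 2 only. The share of protein-coding genes with a position was 68.7% in replicate 1 and 57.4% in replicate 2.

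The number of regions was also set against the length searched, because a long gene has a longer window. The 10 windows covered 2.36 Mb, which gave 2.55 shared regions per Mb (95% exact Poisson interval 0.934 to 5.54). Over all chromosomes there were 3.11 per Mb, at which density 7.34 regions would lie in the windows. Positions of replicate 1 were at 5.94 per Mb against 6.28, and those of replicate 2 at 3.39 per Mb against 4.35. Each genome value lay inside the interval of the KLF genes. Without KLF12 the density was 2.21 per Mb (0.603 to 5.66). These intervals cover counting error only, and a difference from other genes was not tested, since the genes were chosen with earlier results known.

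No shared region lay within 10 kb of the 5′ end of any of the 10 genes. Such a region was found at 8.69% of protein-coding genes, a share so low that 10 genes can easily have none. From the 5′ end of the 10 genes the nearest shared region was a median of 169 kb away. Over protein-coding genes the median was 118 kb. Neither difference from protein-coding genes was tested. KLF10, KLF2 and KLF5 were nearer than the lower quartile of all genes, 44.8 kb. KLF13, KLF17, KLF12 and KLF9 were farther than the upper quartile, 248 kb. KLF7, KLF6 and KLF3 lay between.

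**Figure D2:**
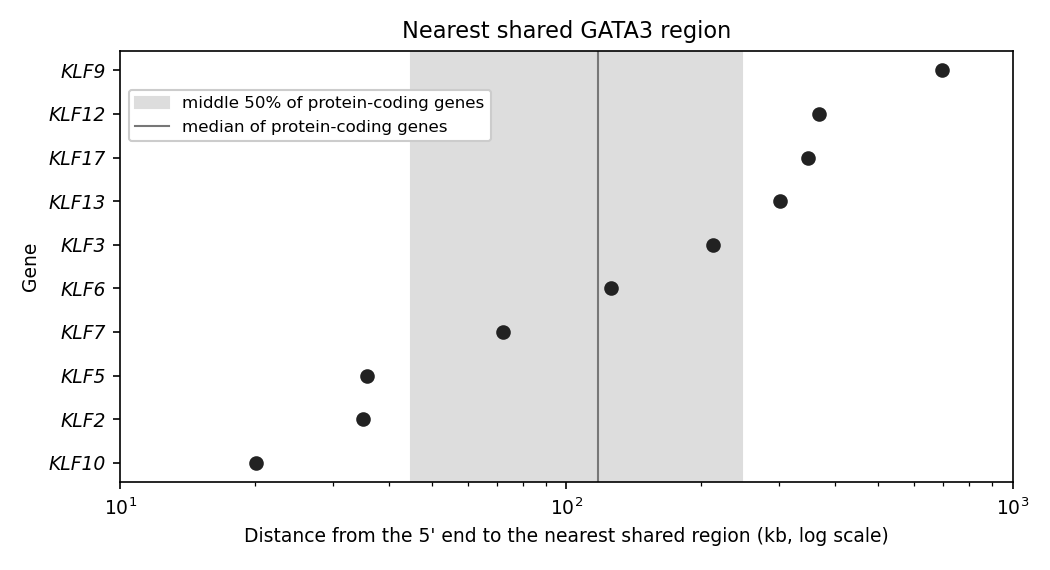
Distance in kb, on a log scale (x axis), from the 5′ end of each of the 10 KLF genes (y axis) to the nearest shared GATA3 region. The grey band holds the middle 50% of protein-coding genes and the line is their median of 118 kb, so 3 genes lie below the band, 3 inside it and 4 above it.

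Each location was also read against its neighbours. In all 6 shared regions the KLF gene had the nearest protein-coding 5′ end. Over all pairs of a protein-coding gene and a shared region under the same rule, that was so in 42.2%, and the difference was not tested. With the positions of a single replicate it was so in 16 of 16 locations. The names in the deposited lists differed from this, since 4 of the 16 locations carried the symbol of the KLF gene and 0 of the 6 shared regions did. The names listed for the shared regions were those of the processed pseudogenes FABP5P1 at KLF5 and POU5F1P2 at KLF10, and clone-based names at KLF2, KLF7 and KLF12. Of the 16 locations 9 were in the gene body, 6 of these in KLF12. For the counts over the 16 locations and for the listed names, no share over all positions was taken. Whether these counts are unusual is therefore not known.

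GATA words were counted in 200 bp around each location. They were in 4 of the 6 shared regions, or 66.7% (95% Wilson interval 30.0 to 90.3), against 82.0% of all shared regions and 36.1% of windows placed every 10 kb along the chromosomes. Those 4 regions were at KLF2, KLF10 and KLF12, with 1 word each. At KLF10 the word was 82.5 bp from the centre, while the other 3 were within 13.5 bp, and the median over all shared regions with a word was 18 bp. The windows at KLF5 and KLF7 held no GATA word, nor the 4 letters GATA on either strand, which 92.6% of all shared regions held. Among the 10 positions of a single replicate, 8 had a GATA word (80.0%, 49.0 to 94.3), against 72.9% of all unshared positions of replicate 1 and 67.0% of those of replicate 2. The intervals of the shared and unshared shares overlapped, and their difference was not tested.

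**Figure D3:**
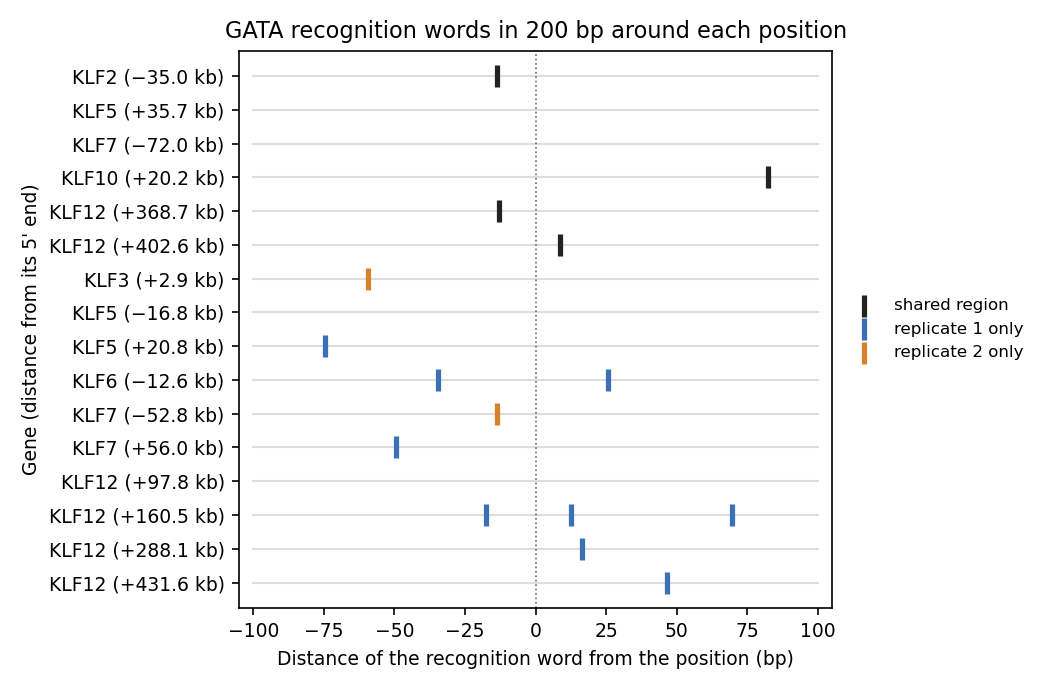
Distance in bp (x axis) of each GATA word from the 16 locations at KLF genes (y axis, with the distance from the 5′ end), shared regions above and positions of 1 replicate below. Ticks mark words within the 200 bp window, and 4 rows are empty, of which 2 are shared regions at KLF5 and KLF7.

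Words of other protein families were counted in the same windows on both strands. CACCC, the core that KLF and SP proteins bind, was in 4 of the 6 shared regions, at KLF2, KLF5, KLF7 and KLF10, and in 33.4% of all shared regions. It was in 27.7% of windows placed along the chromosomes. Of the 10 positions of a single replicate 3 held it, and no share over all unshared positions was taken. The SMAD word GTCTG was in 3 of the 6 shared regions, at KLF5, KLF7 and KLF12, and in 36.1% of all. The E-box CANNTG was in 2 of the 6 and in 65.7% of all. An AP-1 word, TGACTCA or the same with G in the middle, was in the KLF5 region and in 5.64% of all. The GC box GGGCGG, the octamer ATGCAAAT and the TEAD word GGAATG were in 0 of the 6, and in 5.29%, 5.10% and 18.9% of all. With 6 regions these shares are imprecise, and no difference from all shared regions was tested for any of these words. A match describes these letters in the window and not binding by another protein. The GC content of the 6 windows ran from 37.0% to 54.5%, and the quartiles over all shared regions were 39.5% and 48.5%.

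The other genes of the family and the related SP genes were read with the same rule. Of these 17 genes 9 had a shared region, 3 of 8 KLF genes and 6 of 9 SP genes, and 5 had no position in either list. Over all protein-coding genes 47.7% had a shared region and 27.4% had no position. Neither the difference from these shares nor that between KLF and SP genes was tested. KLF4, a core factor of reprogramming, had 1 shared region, 51.7 kb downstream of its 5′ end. Its nearest replicate 1 position, which was not shared, was 3.60 kb downstream of the 5′ end. SP8, a regulator of limb and forebrain development, had the most, with 3 shared regions. SP2 and SP6 are neighbours on chromosome 17 and had the same 2 regions, so the 9 genes hold 11 distinct regions. Within 10 kb of the 5′ end, SP5 and SP8 had a shared region, at 0.396 kb and 0.360 kb upstream. A shared region this near was found at 8.69% of protein-coding genes. SP5 was named after its value was seen.

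**Figure D4:**
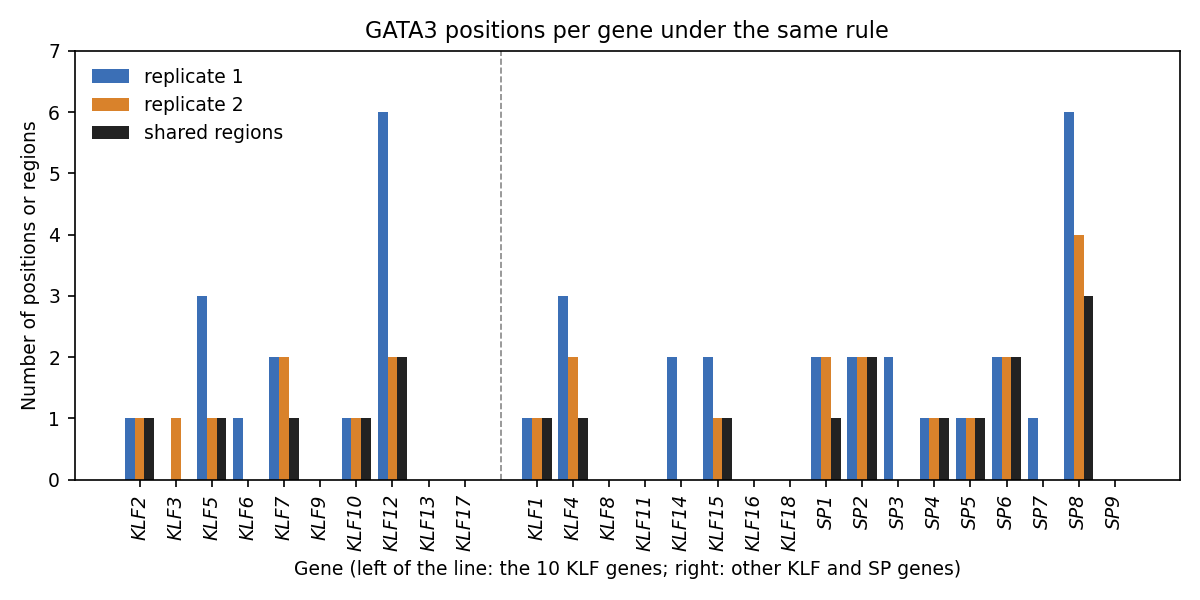
Number of GATA3 positions in replicate 1, in replicate 2 and in both (y axis) for the 10 KLF genes left of the dashed line and 17 other KLF and SP genes right of it (x axis). KLF12 reached 6 positions in replicate 1 and 2 shared regions, and SP8 reached 6 and 3.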

How the data were processed

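GATA3 ChIP-seq of H1 hESCs treated with BMP4 was analysed from 2 deposited peak lists. Per the study's methods, the authors trimmed reads with cutadapt, aligned them with bowtie to the hg38 genome, dropped duplicates (Picard), multiply mapped reads and blacklisted regions, and called peaks with MACS2 in each replicate against its input. The deposited lists give 1 base position and 1 gene name per peak, with no width, score or read count, so depth and peak strength are unknown. How a peak was reduced to a position is not given in the sources used here, and positions are printed as deposited, with an uncertainty of at least 1 bp. The lists also differ in length from the peak numbers in the study's methods, and the reason is not given in the sources used here.

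A position listed under several names was counted once. Replicate positions within 100 bp were linked into shared regions. Genes, exons and 5′ ends were taken from GENCODE release 44 and sequence from hg38. Canonical transcripts gave exon and intron numbers. Words were searched on both strands in 200 bp. Wilson and exact Poisson intervals are at 95%. The analysis ran in Python 3.11.15 with numpy 2.4.6 and scipy 1.17.1, and linking, assignment and word search were checked on simulated data. The genes and lists were chosen with earlier results of these data known, and no test was run between groups. All 10 genes are named, with KLF4 and the 3 other family genes with the most shared regions. Neighbouring genes are named where they overlap or were listed by the authors. Input samples and positions on unplaced scaffolds were not used. Alternatives covered the window, the limit for sharing, the transcript start, the word window and each replicate alone.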

Additional observations from a re-analysis of the deposited data

How the results depend on the processing

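No paired analysis was possible because the input samples had no list to compare and no test was made between groups sharing replicate numbers. A stricter peak threshold could not be tried without scores. The 4-letter core GATA was added after seeing the data. Genes with a shared region ran from 4 to 7 over all alternatives. They were 4 of 10 with a 50 kb window, 4 with 100 kb of the 5′ end only and 7 with 250 kb, where 33.0%, 45.0% and 75.8% of protein-coding genes had one. Shared regions at the 10 genes numbered 14 with the 250 kb window, which also gave KLF3 and KLF6 one each, and stayed between 4 and 6 under the other windows, starts and limits. The density of shared regions and the shares of shared positions and of GATA words stayed inside their intervals under every change of window, limit or word. Using 1 replicate at a time, positions ran from 8 to 14, their density from 3.39 to 5.94 per Mb, genes with a position within 10 kb from 0 to 1 (KLF3, in replicate 2), and the GATA word share from 71.4% to 75%. The count of 14 and the density of 5.94 are those of replicate 1 alone, that is without replicate 2. For the GATA word share with 1 replicate, no share over all positions of that replicate was taken. For single genes, 14 of the values moved, among them KLF2 at 50 bp, KLF7 at 50 kb and KLF12 without its gene body, all to 0. Read depth is not in these lists.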

Other observations

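Positions carrying the names of KLF pseudogenes were outside the rule, because the symbol in the list was not that of a KLF gene. The name KLF17P1 was given on chromosome 12 to 62191327 in replicate 1 and 62191357 in replicate 2, a shared location with 0 GATA words, and to 62192499 in replicate 1 alone. The name KLF2P3 was given on chromosome 2 to 130702414 and 130702392, a shared location with 2 GATA words in the window of each replicate. The name KLF4P1 was given on chromosome 9 to 4823191 in replicate 1 alone.

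KLF5 and KLF12 are neighbours on chromosome 13, with 609 kb between the 3′ ends of the genes. That interval held 1 replicate 1 position, 2 replicate 2 positions and 1 shared region, the KLF5 region described above. This is 1.64 shared regions per Mb, against 3.11 per Mb over the chromosomes, and the difference was not tested. Between 100 and 250 kb from the 5′ ends there were 8 further shared regions, 3 of them at KLF7, 2 at KLF10 and 1 each at KLF2, KLF3 and KLF6. KLF6 was the nearest protein-coding gene to its own, at chromosome 10 position 3659690 in replicate 1 and 3659691 in replicate 2, with 2 GATA words. KLF7 was the nearest to 1 of its 3, with a centre at 207285078.5. The KLF2 one lay 0.096 kb upstream of FAM32A. These were looked up after the values were seen.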
